A study of Mus musculus with 6 samples.

Results

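The NADPH oxidase of phagocytes is described here through 6 genes, Cybb, Cyba, Ncf1, Ncf4, Rac2 and Hvcn1, of the 32285 genes in the count matrices. They were taken by symbol from a list of oxidase genes that was chosen because Cybb was higher in the INHIB libraries of both capture kits, so the level of Cybb under INHIB and NONE is a description and was not tested. The samples came from 3 male C57BL/6J mice at postnatal day 89, whose whole brains were Dounce homogenized in the cold and sorted for live CD45+/CD11b+ cells. Mice 1 and 3 were processed without inhibitors (NONE), and mouse 2 with a cocktail of actinomycin D, triptolide and anisomycin (INHIB), compounds that block transcription or translation. Each mouse gave a library with the V3.0 and another with the V3.1 capture kit of 10x Genomics, 6 libraries in all. INHIB is therefore 1 animal, and the inhibitors and the mouse cannot be told apart.

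The phagocyte oxidase passes electrons from NADPH across a membrane to oxygen and so makes superoxide, which neutrophils use to kill microbes and which brain macrophages can release as a signal or a toxin. Its membrane core is a flavocytochrome of gp91phox (NOX2, the catalytic chain, from Cybb) and p22phox (from Cyba, which holds gp91phox stable). In a resting cell the organizer p47phox (Ncf1) and p40phox (Ncf4, which binds membrane lipid) stay in the cytosol, and on stimulation they move to the membrane with a Rac GTPase, of which Rac2 is the form of blood cells. The voltage-gated proton channel made from Hvcn1 lets protons follow the electrons and keeps the enzyme running.

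In the GENCODE annotation of GRCm38 the members lie on 4 chromosomes. Cybb (ENSMUSG00000015340) is on the minus strand of chromosome X at 9435252-9487771 and Cyba (ENSMUSG00000006519) on the minus strand of chromosome 8 at 122424776-122432930. Ncf1 (ENSMUSG00000015950) is on the minus strand of chromosome 5 at 134220053-134229625, and Hvcn1 (ENSMUSG00000064267) on the plus strand of the same chromosome at 122206804-122242297. Ncf4 (ENSMUSG00000071715, plus strand, 78244801-78262580) and Rac2 (ENSMUSG00000033220, minus strand, 78559167-78572783) are 296587 bases apart on chromosome 15. Ncf1 overlaps Gtf2ird2, Hvcn1 overlaps Tctn1 and Cyba overlaps Gm20388, each on the opposite strand.

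RefSeq (GRCm38.p6) gave a start for Cybb, Cyba and Ncf1. The 250 bases before it are shown 5′ to 3′ because the chains of the flavocytochrome, Cybb and Cyba, differed in how their levels varied among the cell types below, and because Cybb differed with the interferon state of microglia. Capitals mark GAAANNGAAA or its reverse complement TTTCNNTTTC, a letter pattern found in interferon-stimulated response elements. The windows are X:9469325-9469574, 8:122432941-122433190 and 5:134229626-134229875, all on the minus strand, and the Cybb window lies inside the longest gene model of the annotation.
Cybb: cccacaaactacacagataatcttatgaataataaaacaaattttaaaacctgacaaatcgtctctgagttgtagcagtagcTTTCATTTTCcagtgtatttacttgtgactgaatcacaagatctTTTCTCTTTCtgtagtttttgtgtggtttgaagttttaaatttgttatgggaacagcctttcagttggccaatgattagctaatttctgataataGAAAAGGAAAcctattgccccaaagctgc
Cyba: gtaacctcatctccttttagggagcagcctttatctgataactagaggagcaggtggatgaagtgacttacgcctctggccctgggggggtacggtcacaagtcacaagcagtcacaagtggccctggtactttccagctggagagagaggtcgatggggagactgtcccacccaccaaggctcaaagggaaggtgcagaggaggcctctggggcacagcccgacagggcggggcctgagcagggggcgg
Ncf1: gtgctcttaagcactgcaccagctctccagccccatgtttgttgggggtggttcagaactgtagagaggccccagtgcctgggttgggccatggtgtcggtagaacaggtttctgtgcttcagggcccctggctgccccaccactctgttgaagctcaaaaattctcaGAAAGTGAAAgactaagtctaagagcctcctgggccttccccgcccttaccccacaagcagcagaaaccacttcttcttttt
Cybb held 3 matches, at 168 to 159, 124 to 115 and 29 to 20 bases before the start, Ncf1 held 1 at 82 to 73 bases, and Cyba held none. The pattern was found on either strand in 2.98% of 32851 promoter windows of 250 bases, and 4 windows, or 0.0122%, held 3 or more matches. GAGGAAG, a core recognized by the myeloid factor PU.1, was searched on both strands, was in none of the 3 windows shown and was in 10.6% of all windows. A match is a stretch of letters and not a mapped binding site.

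Of 29412 barcodes, 19725 passed the cell filter and 19258 of these were placed in a class by UMIs of marker genes, none of which is a member. The classes were 18910 microglia (904 to 4551 per library), 43 border macrophages (3 to 15), 273 neutrophils (20 to 56) and 32 T or NK lymphocytes. Libraries held 6275898 to 18872816 UMIs. In the V3.0 library of mouse 3, 21.5% of barcodes passed, against 70.0% to 76.8% in the others, and any pair of libraries shared 1 to 5 barcodes. The 6 microglial markers summed to 11698-12472 CPM (UMIs per 1000000 UMIs of the class in a library) in microglia. The 7 border macrophage markers summed to 4226-6848 CPM in border macrophages, in which microglial markers stood at 991-2520 CPM, monocyte markers at 0 to 240 CPM with Ace, Ly6c2 and Plac8 at 0, and all 8 T or NK markers at 0. The 12 neutrophil markers made up 47.7% to 51.8% of neutrophil UMIs, in which monocyte markers stood at 2425-5086 CPM with Ace and Ccr2 at 0. A UMI marks 1 captured transcript end, so CPM is not scaled by length. Whether transcript ends of different genes were captured alike was not checked, so orders of genes within a class are orders of captured UMIs.

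In microglia, Cyba was the most abundant subunit and Cybb, its partner in the membrane, the least. Over the 3 mice Cyba stood at 1252 ± 16.1 CPM (mean ± SD, n = 3), Ncf1 at 333 ± 15.5, Rac2 at 103 ± 4.88, Hvcn1 at 93.8 ± 6.88, Ncf4 at 64.7 ± 2.41 and Cybb at 4.52 ± 2.44 CPM. No neighbours in that order overlapped between mice. The whole microglial class held 322 Cybb UMIs and 85597 Cyba UMIs.

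In neutrophils the catalytic chain was close to the top of the order. Cyba stood at 1654 ± 66.6 CPM, Cybb at 1251 ± 153, Rac2 at 1192 ± 29.5, Ncf1 at 750 ± 27.9, Ncf4 at 274 ± 40.0 and Hvcn1 at 41.5 ± 13.1 CPM (mean ± SD, n = 3). Cybb and Rac2 overlapped between mice, and no other neighbours did. Border macrophages, the macrophages of meninges, choroid plexus and vessels, had Cyba at 1098 ± 31.4 CPM and Cybb at 673 ± 237 CPM, followed by Ncf1 at 123 ± 68.5, Rac2 at 113 ± 33.4, Ncf4 at 64.7 ± 32.7 and Hvcn1 at 18.7 ± 32.4 CPM. There, Ncf1 overlapped Rac2 and Ncf4 overlapped Hvcn1. The 43 border macrophages gave 120 Cybb UMIs but 6 to 29 UMIs for each of Ncf1, Ncf4, Rac2 and Hvcn1, so these 4 levels rest on few molecules.

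**Figure D1:**
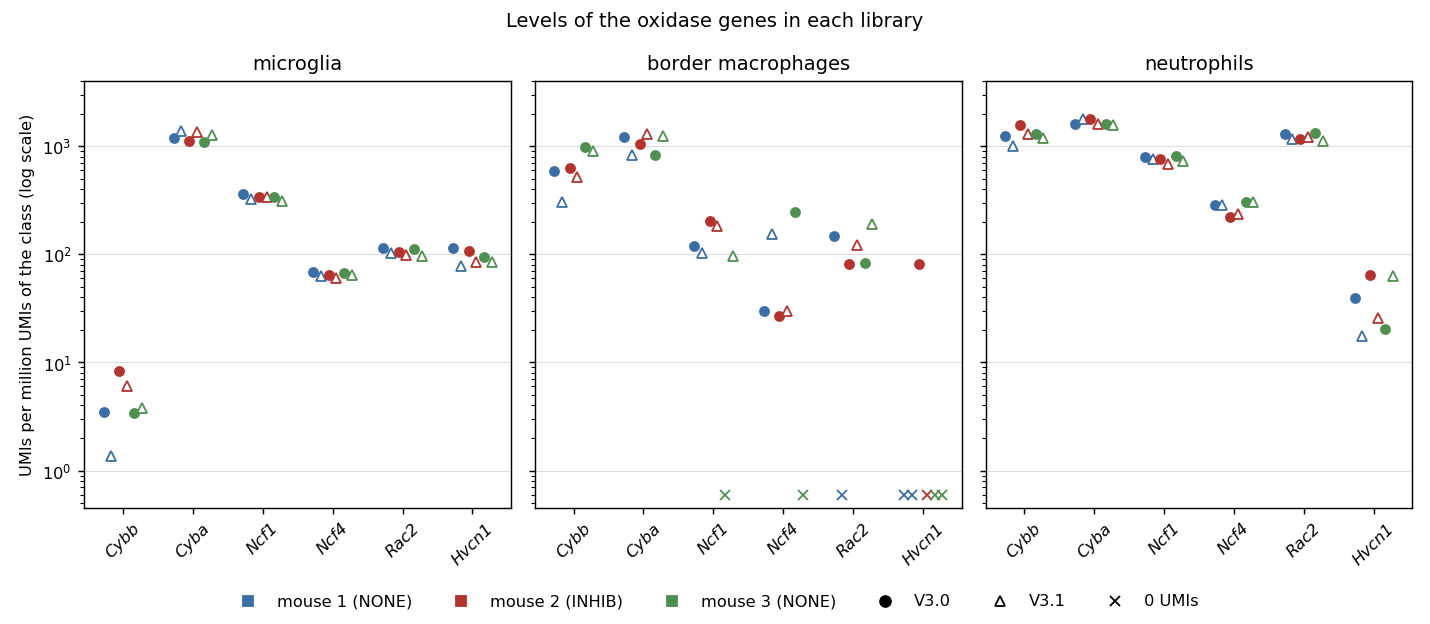
Levels of the 6 members in each of the 6 libraries, in CPM of the class on a log axis, for microglia, border macrophages and neutrophils; color gives the mouse, filled circles V3.0, open triangles V3.1 and crosses 0 UMIs. Cybb lies between 1.36 and 8.25 CPM in microglia and between 1002 and 1582 CPM in neutrophils, while Cyba lies between 820 and 1782 CPM in all 3 classes.

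Cybb had the largest difference of the 6 members between microglia and either of the other classes. In microglia it stood at 3.50 and 1.36 CPM in mouse 1 (V3.0 and V3.1), at 8.25 and 6.10 in mouse 2 and at 3.41 and 3.76 in mouse 3. In border macrophages the same libraries gave 593 and 307, 624 and 513, and 991 and 911 CPM. In neutrophils they gave 1251 and 1003, 1582 and 1287, and 1296 and 1196 CPM. The highest microglial library was therefore far below the lowest library of either other class, and the lowest neutrophil library was above all border macrophage libraries. UMIs were summed per mouse and class and compared within the mouse by the quasi-likelihood test of edgeR, with p-values adjusted by the method of Benjamini and Hochberg over 7625 genes. All 3 mice, the INHIB mouse included, entered these fits. A gene was called where the adjusted p was below 0.05 and the fold exceeded 0.58 on the log2 scale. Cybb was higher in border macrophages than in microglia by a log2 fold change of 7.36 (SE 0.30, adjusted p = 7.53e-131 in edgeR), higher in neutrophils than in microglia by 9.69 (SE 0.25, adjusted p too small to be stored and written as 0) and higher in neutrophils than in border macrophages by 2.33 (SE 0.22, adjusted p = 5.88e-24). All 3 differences had the same direction in 3 of 3 mice. Without mouse 3, whose V3.0 library had few passing barcodes, they were 7.07, 9.62 and 2.55, and all 3 were called in every alternative tried.

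Cyba, by contrast, was abundant everywhere. Its libraries ran from 1092 to 1379 CPM with a median of 1234 in microglia, from 820 to 1298 with a median of 1137 in border macrophages, and from 1574 to 1782 with a median of 1611 in neutrophils. Microglia and border macrophages overlapped, and their log2 difference of 0.04 (SE 0.21, adjusted p = 0.955, edgeR) was not called. Neutrophils lay above both. Their fitted difference from microglia was 1.93 (SE 0.18, adjusted p = 1.92e-25, edgeR) and from border macrophages 1.89 (SE 0.21, adjusted p = 1.42e-17).

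The fitted differences to neutrophils depend on the scaling. TMM, the trimmed mean of M values, sets the bulk of genes level between classes, and neutrophil markers held a large share of neutrophil UMIs, as given above. With totals in place of TMM, an alternative chosen after seeing the data, the median log2 fold change of all genes between neutrophils and microglia went from -0.27 to -1.83, and calls went from 2266 higher and 2844 lower to 887 higher and 5727 lower. Cybb was then 8.09 higher in neutrophils than in microglia and 1.06 higher than in border macrophages, and Cyba, at 0.37 against microglia and 0.57 against border macrophages, was no longer past the fold of 0.58. Against border macrophages the split of calls went from 1709 higher and 1475 lower to 667 and 3083. Between border macrophages and microglia it went from 568 and 448 to 470 and 860, with a median of all genes of -0.18 under TMM and -0.45 under totals, where Cybb was 7.03 higher in border macrophages.

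The cytosolic subunits were higher in neutrophils than in microglia or border macrophages. Ncf1, the organizer, ran from 312 to 360 CPM over the microglial libraries (median 338), from 0 to 203 in border macrophages (median 111) and from 690 to 816 in neutrophils (median 766). The 3 classes did not overlap. Ncf1 was lower in border macrophages than in microglia, with a log2 fold change of -0.93 (SE 0.32, adjusted p = 0.0294, edgeR), and this call was lost without mouse 1 (adjusted p = 0.317) or mouse 3 (0.146), in DESeq2 (0.0741) and in either kit alone. In neutrophils it was higher by 2.70 (SE 0.17, adjusted p = 8.39e-54) than in microglia and by 3.63 (SE 0.28, adjusted p = 5.29e-36) than in border macrophages.

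Ncf4, which encodes p40phox, ran from 59.9 to 69.3 CPM in microglia, from 0 to 248 in border macrophages and from 220 to 307 in neutrophils. It was higher in neutrophils than in microglia by 3.60 (SE 0.13, adjusted p = 1.87e-174, edgeR) and than in border macrophages by 3.62 (SE 0.34, adjusted p = 2.75e-25). Border macrophages and microglia differed by -0.02 (SE 0.49), an error wide enough to hold a large difference in either direction.

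Rac2, the GTPase, had the largest difference between neutrophils and microglia after Cybb. Between neutrophils and border macrophages, Rac2 had the largest difference of all members. It ran from 97.0 to 114 CPM in microglia, from 0 to 192 in border macrophages and from 1119 to 1337 in neutrophils, where no library came near those of the other classes. The log2 fold change was 5.05 (SE 0.19, adjusted p = 3.76e-145, edgeR) against microglia and 4.78 (SE 0.30, adjusted p = 4.31e-55) against border macrophages. Border macrophages and microglia differed by 0.27 (SE 0.41, adjusted p = 0.790), which was not called.

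Hvcn1 was highest in microglia in plain CPM. Microglia held 77.3 to 115 CPM and neutrophils 17.4 to 64.1, without overlap, and border macrophages held 6 UMIs in all, from 4 cells of 1 library of mouse 2. Under TMM the channel was 0.31 higher in neutrophils than in microglia (SE 0.23, adjusted p = 0.224, edgeR), which was not called, and under scaling by total UMIs the log2 fold change was -1.25 (adjusted p = 3.34e-09), so the direction rests on the scaling. The border macrophage value was -1.36 against microglia (SE 0.55, adjusted p = 0.0886), and -1.64 with a call under total UMIs (adjusted p = 0.0190). Neutrophils exceeded border macrophages by 1.66 (SE 0.58, adjusted p = 0.0123), a call that was lost without mouse 1 or mouse 3, in DESeq2, in V3.0 alone and under scaling by total UMIs, where the difference was 0.39 (adjusted p = 0.642).

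Counted together, 1 member of 6 was called higher in border macrophages than in microglia and 1 lower, where 7.45% and 5.88% of all genes tested were called. Neutrophils against microglia gave 5 members higher and 0 lower, beside 29.7% and 37.3% of all genes. Neutrophils against border macrophages gave 6 higher and 0 lower, beside 22.4% and 19.3%. The median log2 fold change of the members was 0.01, 3.15 and 2.98 in these comparisons, and that of all genes -0.18, -0.27 and -0.0041. These counts and medians are under TMM. Under totals, border macrophages against microglia gave 1 member higher and 2 lower, beside 6.16% and 11.3% of all genes. Neutrophils against microglia then gave 4 higher and 1 lower, beside 11.6% and 75.1%. Neutrophils against border macrophages gave 4 higher and 0 lower, beside 8.75% and 40.4%.

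**Figure D2:**
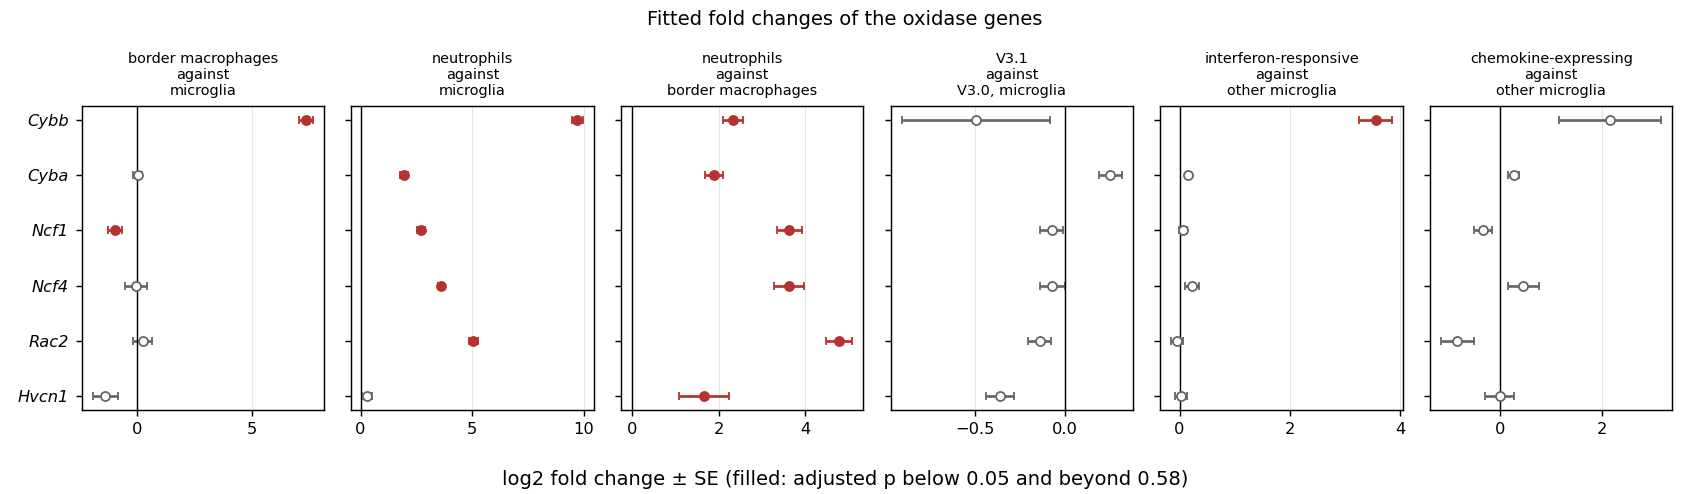
Fitted log2 fold changes of the 6 members with their SE in 6 comparisons, each panel on its own scale; filled points were called (adjusted p under 0.05, size over 0.58). Cybb stands at 7.36, 9.69 and 3.55 in the comparisons of border macrophages, neutrophils and interferon-responsive cells with microglia, while the other members are spread around 0 except in neutrophils, and the Hvcn1 value of 0.31 in neutrophils against microglia turns negative under scaling by total UMIs.

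Per cell, neutrophils held the most members of the complex. Each cell was drawn down to 2000 UMIs in 1 random draw, which left out 739 microglia and 1 lymphocyte that were shallower, and a gene counted as detected from 1 UMI. Cyba was detected in 89.9% of microglia, 95.3% of border macrophages and 94.5% of neutrophils, and without drawing down in 96.9%, 100% and 100%. Cybb was detected in 0.649% of microglia (95% Clopper-Pearson interval 0.538 to 0.777), 69.8% of border macrophages (53.9 to 82.8) and 68.9% of neutrophils (63.0 to 74.3). The intervals of the last pair overlap and the order goes against that of the CPM, so none is read. Before drawing down, the shares of Cybb were 0.989%, 100% and 81.3%, at median depths of 3510.5, 4221 and 5772 UMIs. The neutrophil share depends on the cell filter. With at least 500 genes per cell there were 530 neutrophils, and Cybb was in 58.9% of the 414 deep enough to draw down and in 64.5% of all.

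Rac2 and Ncf1 were detected in a larger share of neutrophils than of microglia or border macrophages. Rac2 was detected in 91.9% of neutrophils, 18.6% of microglia and 20.9% of border macrophages (99.3%, 30.0% and 37.2% without drawing down), and Ncf1 in 74.0%, 46.5% and 27.9% (93.8%, 65.3% and 46.5%). Ncf4 was detected in 43.2% of neutrophils, 11.8% of microglia and 6.98% of border macrophages (76.2%, 20.1% and 20.9%), and Hvcn1 in 6.23%, 16.6% and 4.65% (18.3%, 28.0% and 9.30%). A neutrophil held a mean of 3.79 of the 6 members, a microglial cell 1.84 and a border macrophage 2.26, and 2 neutrophils but no cell of the other classes held all 6.

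T and NK lymphocytes, which do not make the flavocytochrome's catalytic chain in quantity, served as a check on free RNA. None of 32 had a Cybb UMI at a median depth of 3708.5 UMIs, and a count of 0 allows a share of up to 9.38%, above the microglial share. The share of microglia with 1 Cybb UMI can therefore not be told apart from free RNA by this check. The same lymphocytes carried Cyba in 83.9% and Rac2 in 80.6% of cells drawn down to 2000 UMIs (90.6% and 96.9% of all), while Ncf1 was in 6.45% (9.38%).

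**Figure D3:**
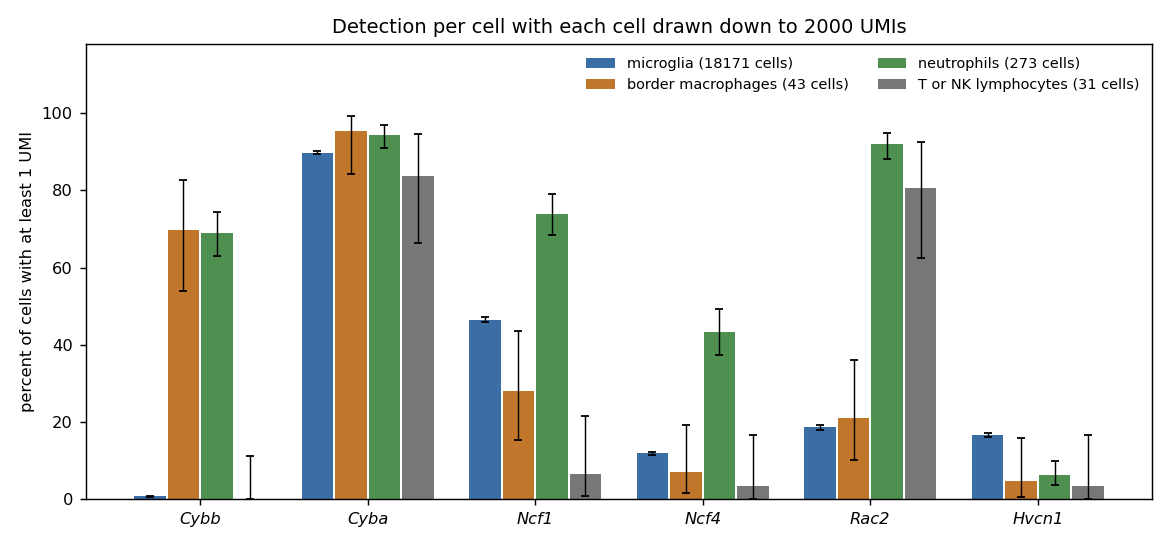
Percent of cells with at least 1 UMI of each gene after each cell was drawn down to 2000 UMIs, by class, with 95% Clopper-Pearson intervals that cover counting error only. Cybb is in 0.649% of microglia and in 69.8% and 68.9% of border macrophages and neutrophils, while Rac2 is in 91.9% of neutrophils, 80.6% of lymphocytes, 18.6% of microglia and 20.9% of border macrophages.

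Microglia in an interferon-responsive state had more Cybb than other microglia. The state was gated on at least 5 UMIs of 10 interferon-induced genes, and 512 microglia met it. Cybb stood at 16.3 CPM in these cells and 2.16 in the others of mouse 1, at 72.1 and 5.14 in mouse 2, and at 31.4 and 2.92 in mouse 3. The interferon-responsive cells were above the others in each mouse, and their lowest mouse was above the highest of the others. Few cells carried most of these UMIs, since 16 of the 512 cells held 2 or more and had 69 of the 88 Cybb UMIs of the state. The log2 fold change was 3.55 (SE 0.29, adjusted p = 6.88e-25, edgeR, 3 of 3 mice higher), and it ran from 3.22 to 3.75 over 12 alternatives, all of them called. Cybb was the only called member of the 6, beside 2.12% of all genes called higher.

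By cells, 35 of 512 interferon-responsive microglia had a Cybb UMI (6.84%, interval 4.81 to 9.38), against 152 of 18398 others (0.826%, interval 0.700 to 0.968), at median depths of 3711.5 and 3504 UMIs. These shares pool the cells of all 6 libraries, and their intervals, which cover counting error only, did not overlap. No other member passed the test for a call. Cyba was 0.16 higher (SE 0.05, adjusted p = 0.0310, edgeR), under the fold needed for a call, and Ncf1, Ncf4, Rac2 and Hvcn1 differed by 0.06, 0.23, -0.04 and 0.02, with SEs of 0.07 to 0.13.

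Microglial markers summed to 9477-10752 CPM in interferon-responsive microglia of the 3 mice and to 11995-12370 in the others. Neutrophil markers without S100a8 and S100a9 summed to 106-222 CPM in the former and 114-241 in the latter, and S100a8 alone stood at 299-512 and 315-474 CPM. Border macrophage markers summed to 1.48-12.01 and 4.14-5.74 CPM, monocyte markers to 21.6-28.2 and 10.2-16.1 CPM, and the MHC class II genes H2-Aa, H2-Ab1 and H2-Eb1 to 19.3-37.2 and 13.3-22.4 CPM. A gate chosen after seeing the data then removed every microglial cell holding a UMI of the border macrophage, monocyte or MHC class II genes. It set no new limit on neutrophil markers, which without S100a8 and S100a9 stood at 107-213 CPM in the interferon-responsive cells kept. Under this gate 23 of 435 interferon-responsive cells (5.29%) and 112 of 16643 others (0.673%) had Cybb. The levels were then 8.48, 38.7 and 26.9 CPM in interferon-responsive cells of mice 1, 2 and 3 and 1.88, 2.38 and 2.66 in the others, and the difference was 3.44 (SE 0.42, adjusted p = 1.94e-14, edgeR).

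**Figure D4:**
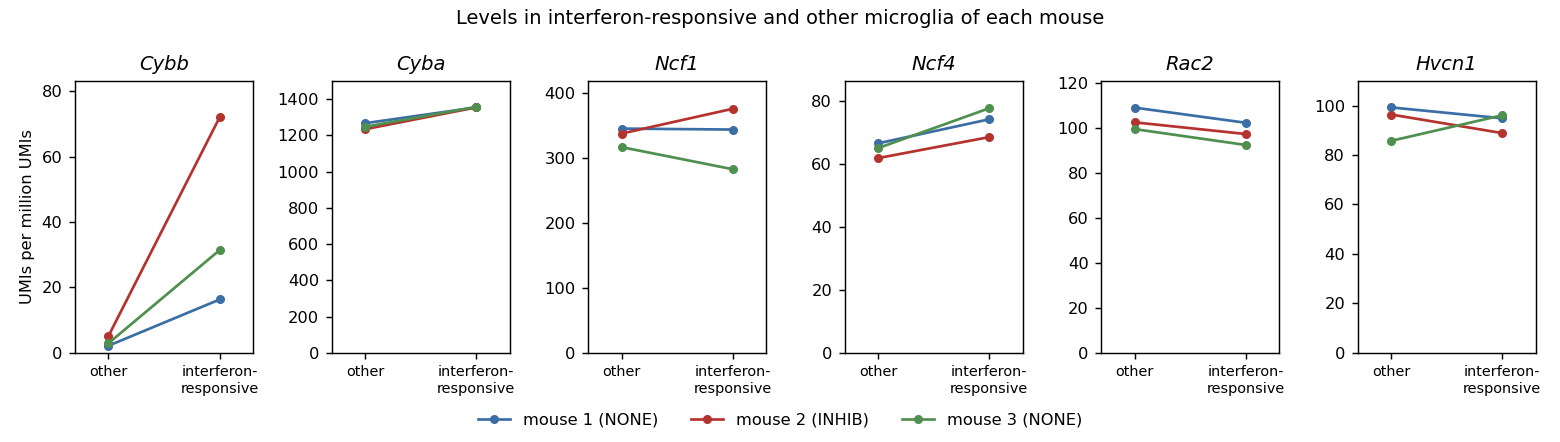
Levels of the 6 members in interferon-responsive microglia and in other microglia of each mouse, in CPM of the state, 1 line per mouse, each panel on its own axis from 0. Cybb is higher in interferon-responsive cells of all 3 mice (16.3, 72.1 and 31.4 CPM against 2.16, 5.14 and 2.92), while the lines of the other genes are nearly level or cross.

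Microglia that express the chemokines Ccl3 and Ccl4, a rare state of 74 cells, gave no called member, beside 2.38% of all genes called. At an unadjusted p under 0.05, 1188 genes of 11502 differed in edgeR, and among the members Cybb, Cyba and Rac2 did. Cybb was in 3 of the 74 cells with 6 UMIs and differed by 2.15 (SE 1.00, adjusted p = 0.386, edgeR), and without mouse 1 by 0.86. Rac2 differed by -0.83 (SE 0.32, adjusted p = 0.188). Over all genes 143 were called higher and 131 lower, and under scaling by total UMIs 166 and 85.

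Between the kits, no member was called in microglia (V3.1 against V3.0), beside 3.07% of all genes, although 3523 genes had an unadjusted p under 0.05 in edgeR. Hvcn1 differed by -0.36 (SE 0.08, adjusted p = 0.0110, edgeR) and Cyba 0.26 higher (SE 0.06, adjusted p = 0.0206), both under the fold needed for a call. Cybb differed by -0.50 (SE 0.41, adjusted p = 0.462), and without microglia holding MHC class II, border macrophage or monocyte UMIs the sign was positive, at 0.11.

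The level of Cybb in microglia by inhibitor is the pattern that the genes were chosen by, and is given as values only. Within V3.0 the INHIB library stood at 8.25 CPM (117 UMIs, exact 95% Poisson interval 6.82 to 9.89) and the NONE libraries at 3.50 (45 UMIs, 2.55 to 4.69) and 3.41 CPM (11 UMIs). Within V3.1 the INHIB library stood at 6.10 CPM (74 UMIs) and the NONE libraries at 1.36 (13 UMIs, 0.724 to 2.33) and 3.76 CPM (62 UMIs). After TMM scaling the INHIB mouse exceeded the mean of the NONE mice by a log2 difference of 1.28 in V3.0 and 1.26 in V3.1. Both INHIB libraries were above all 4 NONE libraries for 1 member, Cybb, and for 7.12% of 12016 genes, and below them for 0 members and 6.82% of genes.

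Few cells carried that difference. The share of microglia with any Cybb UMI was 1.15% and 1.21% in the INHIB libraries and 0.772%, 0.371%, 0.996% and 1.21% in the NONE libraries, and these overlapped. Cells with 2 or more Cybb UMIs were 22 and 12 in the INHIB libraries (0.539% and 0.363%). They were 7, 1, 2 and 4 in the NONE libraries (0.208%, 0.0371%, 0.221% and 0.0879%). These counts use the same Cybb UMIs by which the genes were chosen, and no share of all genes was taken for them. They are given as values only. In all, 48 microglia with 2 or more Cybb UMIs, 0.254% of microglia, held 183 of the 322 Cybb UMIs (56.8%), with up to 18 in a cell.

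These 48 cells differed from microglia without Cybb in more than Cybb. Their median depth was 5364 UMIs against 3508, 33.3% of them were interferon-responsive against 2.55%, and microglial markers summed to 6469 CPM against 12164. Apoe, a lipid carrier, stood at 8701 CPM against 291, Cd74, the invariant chain of MHC class II, at 1311 against 25.2, and the 3 MHC class II genes at 968 against 13.3 CPM. Border macrophage markers summed to 46.3 CPM against 4.46 and monocyte markers to 84.8 against 12.6. Of the other subunits, Cyba stood at 1700 CPM against 1248, Ncf1 at 254 against 335, Rac2 at 108 against 103 and Ncf4 at 61.7 against 64.4. Apoe, Cd74 and the MHC class II genes were picked after the values were seen.

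Without microglia holding a UMI of the MHC class II, border macrophage or monocyte genes, the INHIB libraries no longer lay above all 4 NONE libraries, although each stayed above both NONE libraries of its own kit. Cybb was then at 3.02 and 3.89 CPM in the INHIB libraries and at 2.59, 1.38, 2.70 and 3.41 CPM in the NONE libraries, which overlapped between kits, as the V3.0 INHIB library was below the V3.1 library of mouse 3. The log2 difference was 0.21 in V3.0 and 0.71 in V3.1, and 0 members lay above all NONE libraries.

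**Figure D5:**
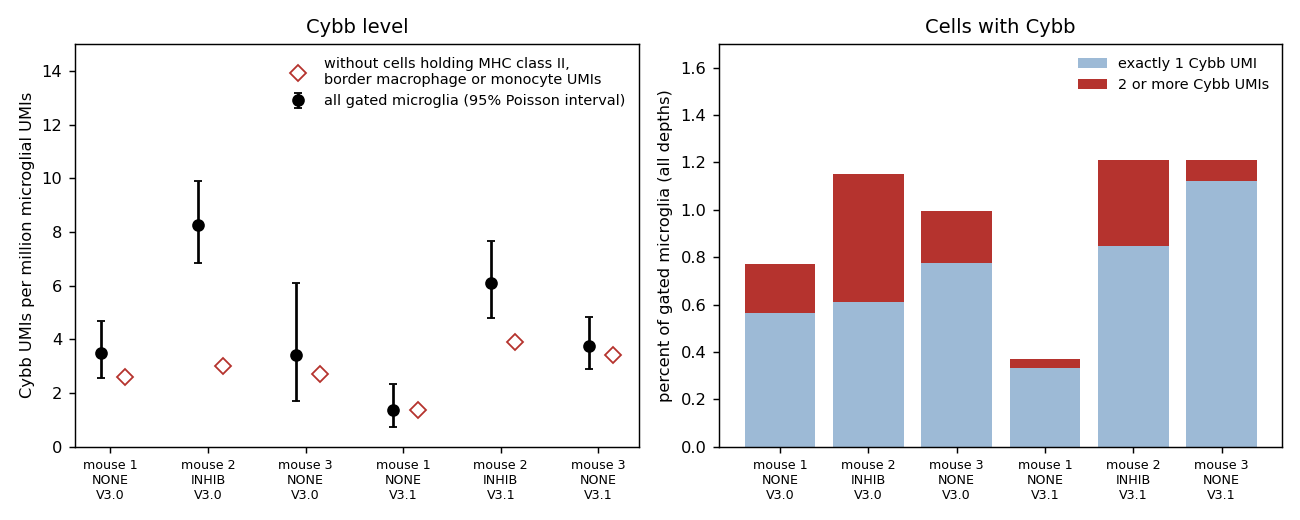
Left, Cybb in CPM of the microglial UMIs in each library with exact 95% Poisson intervals that cover counting error only, and as open diamonds the level without cells holding MHC class II, border macrophage or monocyte UMIs; right, the percent of microglia with exactly 1 and with 2 or more Cybb UMIs. The INHIB libraries stand at 8.25 and 6.10 CPM, above the NONE range of 1.36 to 3.76, and at 3.02 and 3.89 CPM they overlap the NONE range of 1.38 to 3.41 without those cells.

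No other member stood apart by inhibitor in microglia, where the remaining 5 differed by log2 values of -0.08 to 0.10. In neutrophils the Cybb difference was 0.39 in V3.0 and 0.12 in V3.1 with overlap between INHIB and NONE libraries, and 0 members were above all NONE libraries, beside 7.87% of 2527 genes. With doubled gates Cybb was above all NONE libraries there, at differences of 0.39 and 0.23. No share of all genes was taken under those gates, so this is given as values only. Under the main gates Ncf4 was below all NONE libraries in neutrophils, at 220 and 236 CPM against 284 to 307, as 8.67% of genes were. In border macrophages the Cybb differences were -0.40 and -0.19. Of 326 genes with enough UMIs there, among them 2 members, 5.83% lay above and 7.67% below, and neither member was among these. Ncf1 was too low for that filter, so these shares do not cover it. It stood at 203 and 181 CPM in the INHIB libraries, from 15 and 6 UMIs. The NONE libraries stood at 0 to 119 CPM, from 0 to 4 UMIs. The counting intervals overlapped, at 66.5 to 394 CPM in the V3.1 INHIB library and 32.3 to 304 in the V3.0 library of mouse 1. No difference is read from so few UMIs.

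Other genes of the pathway were read from 3 lists. Of 7 other NOX enzymes and partners, none had enough UMIs to be tested between classes. Microglia held 508 UMIs of Noxo1 and 50 of Nox1, 2 of Duox2 and 0 of Nox3, Nox4, Noxa1 and Duox1, so that Cybb, at 322 UMIs, was the NOX catalytic chain with the most UMIs. Between kits Nox1 was 2.25 higher in V3.1 (SE 0.62, adjusted p = 0.0306, edgeR), 1 of 2 tested, beside 1.56% of all genes called higher.

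All 12 oxidase regulators read here were tested. None was called between border macrophages and microglia under TMM, with a median log2 fold change of 0.04. Under totals 1 was, Dock2 at -0.98, beside 11.3% of all genes called lower. Under TMM, 7 were called higher and 1 lower in neutrophils than in microglia, with a median of 0.61, beside 29.7% and 37.3% of all genes. With totals in place of TMM the counts turned to 2 higher, Arhgdib and Prkcb, and 10 lower, with a median of -0.95, beside 11.6% and 75.1% of all genes, so the direction of most regulators rests on the scaling. Arhgdib, which holds Rac in the cytosol of blood cells, was higher by 4.40 (SE 0.20) under TMM and 2.85 under totals, the kinase Prkcb by 2.27 (SE 0.18) and 0.71, and Nrros, a chaperone that also limits NOX2, was lower at -0.97 (SE 0.26) and -2.53. Against border macrophages 6 were higher and 1 lower under TMM, beside 22.4% and 19.3% of all genes, and 1 higher and 4 lower under totals, beside 8.75% and 40.4%. There the Rac exchange factor Dock2 was higher by 1.47 (SE 0.37) under TMM and differed by 0.18 under totals, where it was not called. Under TMM none of the 12 was called by interferon or chemokine state or by kit.

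Of 13 genes of oxidant handling, 11 were tested. Border macrophages had 5 higher and 0 lower than microglia, with a median of 0.64, beside 7.45% and 5.88% of all genes, among them heme oxygenase Hmox1 at 2.97 (SE 0.35), the peroxiredoxins Prdx1 at 1.63 (SE 0.20) and Prdx5 at 1.47 (SE 0.27), and catalase Cat at 1.42 (SE 0.46). Under totals 4 of the 5 were called, without Cat, beside 6.16% of all genes called higher. Neutrophils had 5 higher and 3 lower than microglia under TMM, beside 29.7% and 37.3% of all genes, and 2 higher and 7 lower under totals, beside 11.6% and 75.1%. Under TMM the values were Prdx5 at 5.21 (SE 0.21) and the glutathione peroxidase Gpx1 at 3.53 (SE 0.18), Prdx1 at -2.03 (SE 0.25) and Cat at -1.57 (SE 0.49). All 4 were called in the same direction under totals. Cat rested on 8 UMIs in neutrophils and 18 in border macrophages, Prdx1 on 33 in neutrophils and Hmox1 on 41 in border macrophages. Neutrophils had 2 higher and 4 lower than border macrophages under TMM, beside 22.4% and 19.3% of all genes. Under totals they had 2 and 5, beside 8.75% and 40.4%. In the chemokine state 3 were higher, beside 1.24% of all genes. They were Hmox1 at 1.50, Prdx1 at 0.90 and Nfe2l2, the regulator of antioxidant genes, at 0.71. In the interferon state Gclm, a subunit of the enzyme that starts glutathione synthesis, was lower at -0.69, beside 0.254% of all genes called lower. Between kits the superoxide dismutase Sod1 was 0.79 higher in V3.1, beside 1.56% of all genes called higher.

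Over the 18 sums of library and class, the genes whose log2(CPM + 1) ran most like that of Cybb were Fxyd5 (Pearson r = 0.989), Ifitm2 (0.981), F630028O10Rik (0.980), Cpne2 (0.976) and Sp100 (0.973), of 2915 genes with a mean of at least 50 CPM. The sums share libraries and fall into 3 classes, so r describes the difference between classes. Fxyd5 ran from 4.96 to 12.5 CPM in microglia, from 298 to 413 in border macrophages and from 433 to 751 in neutrophils. Among the members Rac2 took place 251 (r = 0.373), Cyba 331 (0.242), Ncf4 378 (0.170) and Ncf1 629 (-0.09), and Hvcn1 was under the limit with a mean of 48.5 CPM.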

How the data were processed

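Single-cell RNA-seq of sorted mouse brain cells was read from the raw UMI counts per gene and barcode that the authors deposited, 1 matrix per library. Per the labels they used Cell Ranger 5.0.0 with the mm10 build, and no values were normalized before deposit. Strand use and ambient RNA removal are not given in the sources used here.

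The cell filter kept barcodes with 1000 to 4000 genes, no more than 12000 UMIs and no more than 15% of UMIs from mitochondrial genes. Classes were gated on summed marker UMIs: microglia at least 10 UMIs from 3 or more of 6 genes, border macrophages at least 5 from 3 or more of 7 genes, neutrophils at least 20 without S100a8 and S100a9, and T or NK lymphocytes at least 3, each with upper limits on the other classes' markers. Monocyte markers were limited to 4 UMIs in microglia and border macrophages and were not limited in neutrophils or lymphocytes. Microglia could hold up to 9 UMIs of neutrophil markers without S100a8 and S100a9. Border macrophages needed more UMIs of their own list than of the microglial list. Barcodes over the limits were left out, mixed barcodes under them may remain, and no doublet caller was run. Interferon-responsive microglia had at least 5 UMIs from 3 or more of 10 genes, chemokine-expressing microglia at least 3 UMIs of Ccl3 and Ccl4. UMIs were summed per mouse and class, or per library for the kits, filtered by filterByExpr and tested with edgeR 4.0.16 (TMM, quasi-likelihood, mouse as a block except between kits, Benjamini-Hochberg adjustment over all genes tested) in R 4.3.3. A gene was called where the adjusted p was below 0.05 and the fold exceeded 0.58 on the log2 scale. DESeq2 1.42.0 was an alternative. Data simulated from the microglial profile were put through the fits for kits, neutrophils against microglia, border macrophages against microglia and the interferon state. Neutrophils against border macrophages and the chemokine state were not simulated, nor was the large share of marker UMIs in neutrophils. Poisson and Clopper-Pearson intervals cover counting error only.

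Libraries with the same number came from the same mouse, and their deviations from the kit means correlated at 0.359, 0.501 and 0.191 over 500 genes in mice 1, 2 and 3. The members, the gene lists and the tests were chosen with earlier results of these data known. All 6 members are named in each comparison, and of each other list at most 4 called genes with the largest fold change either way. An item of the gene lists is not reported here. Alternatives were DESeq2, no filter on low counts, doubled marker minimums, at least 500 genes per cell, leaving out each mouse, the fit with or without the mouse block, each kit alone and 1000 UMIs per cell. Scaling by total UMIs and a microglial gate without MHC class II, border macrophage and monocyte UMIs were added after seeing the data.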

Additional observations from a re-analysis of the deposited data

Results flagged for a closer look

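Cybb was abundant in cells that no gate took and that the comparisons do not use. The 467 passing cells outside the gates, 2.37% of passing cells, held 2626 of 5154 Cybb UMIs (51.0%), at 1109 CPM, from 885 to 1321 CPM by library, against 1.36 to 8.25 in gated microglia. Of these cells 243 were above the limit on monocyte markers, and they held 2078 of the Cybb UMIs. The other members had 1.35% to 7.50% of their UMIs in the ungated cells.

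Hvcn1 in border macrophages was seen in 1 of 6 libraries, at 79.8 CPM after TMM scaling, from 6 UMIs. The other 5 held 0 UMIs, with upper limits of 109 to 305 CPM, so a difference from it was not detectable at this depth. Ncf1 in neutrophils had its lowest library, V3.1 of mouse 2, at 651 CPM after TMM scaling against 751 to 803 in the other 5. Without TMM it stood at 690 CPM, with a counting interval of 601 to 788 that holds other libraries' values. These were the only values set apart among 18 groups of 6 libraries tested, and chance sets apart about 1 group in 20.

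Pairs of gene and class with UMIs in all 6 libraries were searched for a kit difference of opposite sign in the INHIB mouse and both NONE mice. There were 2 such pairs, and the difference between mice was not tested. Pairs in which the NONE mice differed in sign from each other were not counted. Cybb in microglia was among those, lower in V3.1 in mice 1 and 2 and higher in mouse 3. For Ncf1 in microglia the log2 difference of V3.1 against V3.0 was -0.13 in mouse 1, 0.00 in mouse 2 and -0.09 in mouse 3. Without TMM scaling V3.1 was the lower in all 3 mice, at 326, 338 and 312 CPM against 360, 340 and 337. For Cyba in neutrophils it was 0.13 in mouse 1, -0.28 in mouse 2 and 0.07 in mouse 3.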

How the results depend on the processing

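Of 419 alternative values for 36 member fold changes, 387 kept their direction and their side of the threshold, 12 lost the call, 3 gained it and 17 changed sign at 2 decimals, and of the latter only Hvcn1 in neutrophils against microglia was called, at -1.25 under scaling by total UMIs. Between border macrophages and microglia, 1 member was called in place of 2 in DESeq2 and in V3.0 alone, and 1 to 3 with a mouse left out. In that comparison Cyba turned to -0.19 without a filter, -0.23 without mouse 2 (0.10 at most without another mouse), -0.20 under total UMIs and -0.30 in V3.1 alone, and Ncf4 to 0.02 in DESeq2 and 0.31 without mouse 2 (-0.25 without mouse 3). In interferon-responsive microglia Ncf1 turned to -0.02 with doubled gates, -0.05 without mouse 2 (0.12 without mouse 3) and -0.03 in V3.1 alone, Ncf4 to -0.10 with doubled gates, Rac2 to 0.12 in V3.0 alone, and Hvcn1 to -0.02 with 500 genes per cell and under total UMIs and -0.05 without mouse 3 (0.07 without mouse 2). In the chemokine state Ncf4 turned to -0.06 in V3.0 alone, where Cybb was not tested, and between kits Cybb turned to 0.11 under the stricter gate. The cause of these changes was not tested.

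Between INHIB and NONE microglia, 0 members lay above all NONE libraries under the stricter gate and 1 to 2 without a NONE mouse, and 0 to 1 lay below. The Cybb difference in V3.0 was 1.26 under total UMIs, 1.36 with doubled gates, 1.21 with 500 genes and 0.21 under the stricter gate, and in V3.1 0.70 to 2.19 without a NONE mouse. At 1000 UMIs per cell the mean number of members detected was 1.23 in microglia, 1.37 in border macrophages and 2.76 in neutrophils.

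Genes called between border macrophages and microglia numbered 1016, and 588 without mouse 2, 625 in V3.0 and 601 in V3.1. Neutrophils against microglia gave 5110 and 3096 in V3.0, and against border macrophages 3184, 1912 in V3.0 and 1981 in V3.1. Kits gave 369, and 167 without mouse 1 and 148 without mouse 2. The interferon state gave 281 and 173 in V3.0, and the chemokine state 274, 134 in DESeq2, 127 without mouse 2, 138 without mouse 3, 63 in V3.0 and 160 in V3.1. With mouse as a replicate block the kits gave 547 genes and 0 members, and leaving the replicate block out of the other fits gave 2, 5, 6, 1 and 0 members, so the block changed no member's call. Without mouse 2 Hvcn1 had 0 UMIs in border macrophages, where 3 UMIs would be 56.3 CPM in mouse 1 and 91.0 in mouse 3, and no fold is given.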

Other observations

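The cells outside every gate differed from microglia in other members too. Over them Cyba stood at 1699 CPM, Rac2 at 316, Ncf1 at 201, Ncf4 at 154 and Hvcn1 at 37.6 CPM, values of a mixed set that belongs to no class. In these cells monocyte markers summed to 2665-4228 CPM by library, microglial markers to 1616-3754, border macrophage markers to 562-885 and neutrophil markers to 2378-20125 CPM.

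Genes of the interferon list were lower in microglia than in border macrophages or neutrophils, and the last pair overlapped. They summed to 270-374 CPM in microglia, 1127-3037 in border macrophages and 1152-1429 in neutrophils. In the 48 microglia with 2 or more Cybb UMIs they summed to 2336 CPM, in those with 1 to 922, and in those with none to 295.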
